A study of Mus musculus with 6 samples.

Results

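The genes described here are 7 components of the circadian clock, listed by name: Arntl, Clock, Npas2, Nfil3, Cry1, Cry2 and Rora. They were matched by gene symbol to the array's transcript clusters, the probe groups that measure a gene, and the cluster of highest mean signal stood for each symbol. Of the 7 genes, 6 were measured among 19938 genes in all, each by 1 cluster (10556463 for Arntl, 10409278 for Nfil3, 10530733 for Clock, 10371400 for Cry1, 10485170 for Cry2 and 10586700 for Rora), and Npas2 was not analysed here.

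The study measured total RNA of the soleus, a slow postural muscle of the calf, in male C57BL/6 mice of 8 weeks. The 6 arrays fell into 3 groups of 2: hindlimb suspension with electroacupuncture (HS + EA below), hindlimb suspension alone (HS) and control. Suspension takes the body's weight off the hind limbs, and electroacupuncture passes a current through inserted needles. The labels give neither the length of suspension, the time of day of sampling, the points stimulated, nor whether duplicate arrays were hybridized with RNA of different mice, so the p-values measure the spread between arrays, which may be technical.

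The clock is a loop of transcription factors that runs in most cells, muscle fibres included. The proteins of Arntl (BMAL1) and of Clock or its relative Npas2 pair up and activate genes with E-boxes in their promoters, among them the Per and Cry genes, whose proteins inhibit that pair, and the outputs Dbp, Tef and Hlf. In a second loop the receptors RORA (activator) and REV-ERB (repressor, genes Nr1d1 and Nr1d2) compete for ROR elements, through which they control Arntl, Nfil3, Clock, Npas2 and Cry1. NFIL3 represses at D-boxes, the sites at which DBP, TEF and HLF activate.

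All 6 measured genes had mean signals above the 95th percentile of 1027 olfactory receptor genes, 3.50 on the log2 scale, which served as a measure of background. The muscle identity of the tissue was clear from its markers, all 11 of which lay above that level, with the actin gene Acta1 between 13.25 and 13.53 and the slow myosin gene Myh7 between 11.62 and 12.02 over the 6 arrays. Array medians ran from 4.55 to 4.61 over the genes tested. The control arrays stood further apart from each other than the arrays of the other groups: the SD across genes of the difference between duplicates was 0.251 in HS + EA, 0.293 in HS and 0.357 in control. The mean level of 8 measured adipocyte markers was 6.49 and 6.40 on the HS + EA arrays, 6.15 and 5.93 on the HS arrays, and 5.91 and 7.30 on the control arrays, so control array 2 was the highest and control array 1 the lowest.

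Promoter sequences were read because a ROR element is defined by a sequence, although the 7 genes were listed by name. RefSeq promoter windows on GRCm38.p6, from 250 bases before to 50 bases after a start site, were found for all 7 genes and searched on both strands for AGGTCA, the core of a ROR element, and for GTAGGTCA, a longer form that contains that core and was chosen after the windows of Arntl and Nfil3 had been read. The E-box CACGTG and the D-boxes TTATGTAA and TTACGTAA were searched as well. The windows of Arntl, Nfil3 and Cry1 are shown because the first 2 hold the longer ROR form and the last the E-box. Capitals mark these matches. The Arntl window is chr7:113207261-113207560 on the plus strand, that of Nfil3 is chr13:52980990-52981289 on the minus strand and that of Cry1 is chr10:85185005-85185304 on the minus strand, each read along its gene.
Arntl: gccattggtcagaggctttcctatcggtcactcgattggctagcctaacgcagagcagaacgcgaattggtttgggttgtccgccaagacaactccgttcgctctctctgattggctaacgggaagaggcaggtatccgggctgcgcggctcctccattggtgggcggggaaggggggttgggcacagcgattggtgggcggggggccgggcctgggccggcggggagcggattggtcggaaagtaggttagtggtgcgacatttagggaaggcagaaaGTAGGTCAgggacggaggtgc
Nfil3: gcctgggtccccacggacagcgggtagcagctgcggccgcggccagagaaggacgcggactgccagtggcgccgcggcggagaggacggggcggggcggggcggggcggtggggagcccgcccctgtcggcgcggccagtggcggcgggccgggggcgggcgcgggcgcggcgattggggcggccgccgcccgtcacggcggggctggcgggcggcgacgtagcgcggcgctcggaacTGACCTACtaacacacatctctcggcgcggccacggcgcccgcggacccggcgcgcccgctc
Cry1: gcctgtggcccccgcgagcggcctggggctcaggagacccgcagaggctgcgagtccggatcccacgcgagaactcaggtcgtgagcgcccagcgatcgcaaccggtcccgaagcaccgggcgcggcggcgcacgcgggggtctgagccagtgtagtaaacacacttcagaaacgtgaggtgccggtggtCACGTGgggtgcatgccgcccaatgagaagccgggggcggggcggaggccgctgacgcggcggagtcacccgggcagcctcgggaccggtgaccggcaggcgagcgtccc

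In the Arntl window GTAGGTCA began 30 bases after the start site. RefSeq lists another Arntl start site 46 bases upstream, whose window ends before the match. In the Nfil3 window the same letters lay on the opposite strand, printed there as TGACCTAC, beginning 12 bases before the start site. Of 32851 windows of this length in the table, 0.621% held GTAGGTCA and 16.3% held AGGTCA. The longer form was chosen from the Arntl and Nfil3 windows, so the first share is no test of its presence in them. The shorter core was also found, by itself, in 1 of the 3 windows of Clock. In all, AGGTCA was found in 3 of the 7 genes and 3 of their 10 windows. The windows of Npas2, Cry1, Cry2 and Rora held neither ROR form. CACGTG began 60 bases before the start site of Cry1 and was found in 7.15% of all windows. Neither D-box form was found in any window of the 7 genes. These are matches of letters and not measured binding, and a window without a match leaves sites elsewhere in the gene unexamined. Other spellings were not searched, such as gtaggtta, which stands in both Arntl windows.

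Arntl and Nfil3 each had their lowest signals on the HS + EA arrays. In that group Arntl lay about 2-fold under both other groups, and its level in HS lay within the error of control. Rora and Cry2 showed another pattern, with both suspended groups above control. Clock and Cry1 had the smallest ranges over the 6 arrays, 0.59 and 0.52 log2, against 0.99 to 1.80 for the other 4 genes.

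**Figure D1:**
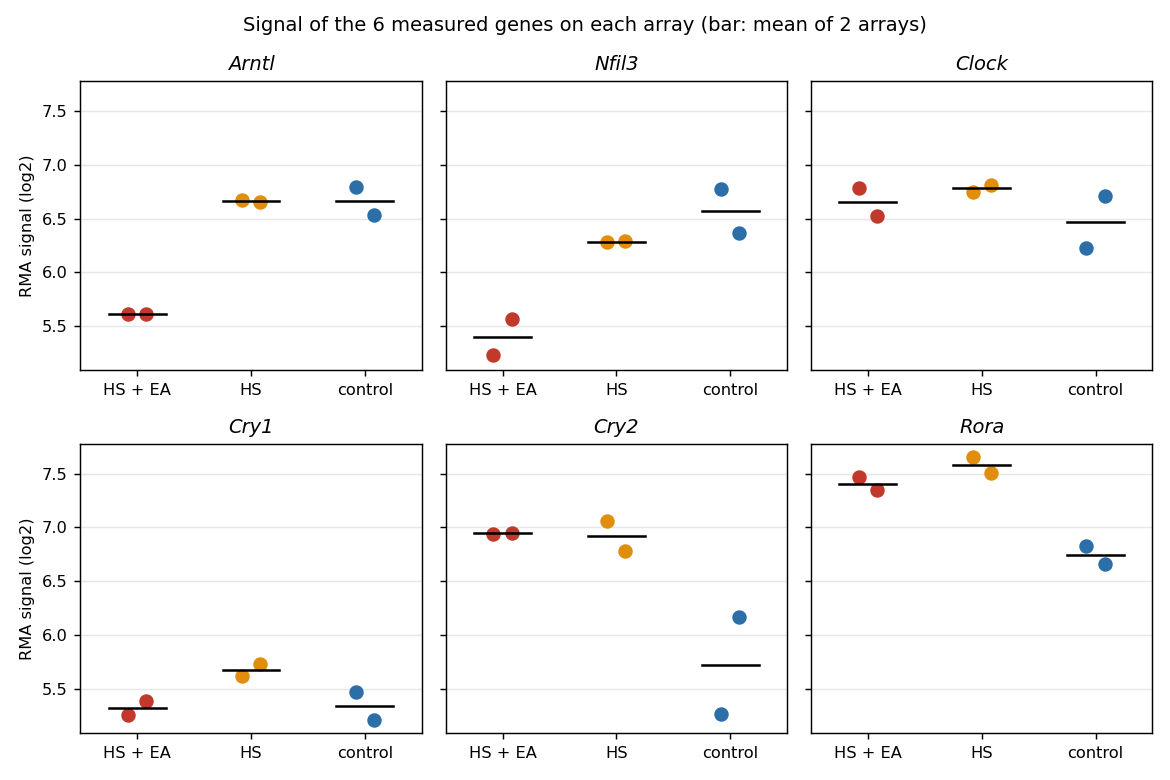
RMA signal on the log2 scale (vertical axis) of the 6 measured genes in the 3 groups, HS + EA, HS and control from left to right. Points are single arrays and bars the mean of 2. The Arntl points of HS + EA lie at 5.62 and 5.61, below the other 4, while the control points of Rora, 6.82 and 6.66, lie below the suspended ones.

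Arntl, which encodes the activator BMAL1, had signals of 5.62 and 5.61 on the HS + EA arrays, against 6.68 and 6.66 on the HS arrays, and 6.79 and 6.53 on the control arrays. The HS + EA arrays were the 2 lowest and did not overlap either other group, while the HS values lay between those of control. The mean was 5.61 ± 0.004 in HS + EA, 6.67 ± 0.01 in HS and 6.66 ± 0.19 in control (log2 signal, SD, n = 2 each). Arntl fell in HS + EA relative to control by 1.05 ± 0.14 log2 (difference ± SE from limma, adjusted p = 0.015 over all genes), which is 2.07-fold with a 95% interval from 1.66 to 2.58. Relative to HS the difference was -1.05 ± 0.14, 2.08-fold with an interval from 1.66 to 2.59, and did not pass (adjusted p = 0.204). By unadjusted p it ranked 4 of 19938 genes in that comparison. In HS minus control the difference was 0.01 with an interval from -0.31 to 0.33 (adjusted p = 0.993). Its sign turned in 5 of 18 alternative settings, most of which cannot change a difference, and it reached -0.13 without control array 2.

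Nfil3, the D-box repressor, had signals of 5.24 and 5.57 on the HS + EA arrays, 6.28 and 6.29 on the HS arrays, and 6.78 and 6.37 on the control arrays. The groups did not overlap, and lay in the order HS + EA, HS, control, and neither neighbouring pair passed the test. Nfil3 fell in HS + EA relative to control by 1.17 ± 0.18 log2 (adjusted p = 0.0244), or 2.25-fold with an interval from 1.70 to 2.98. Relative to HS it differed by -0.88 ± 0.18 (adjusted p = 0.687), 1.85-fold with an interval from 1.39 to 2.44. HS minus control gave -0.29 ± 0.18 (adjusted p = 0.579), which was -0.08 without control array 1 and -0.49 without control array 2. The calls of Arntl and Nfil3 against control were lost without HS + EA array 1 (adjusted p = 0.16 and 0.244) and without HS + EA array 2 (0.157 and 0.113), where 1 array was left in the group and assumed to vary like the others. That of Nfil3 also missed the threshold without control array 1 (0.0614) and HS array 2 (0.0502).

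Rora, the activator at ROR elements, had signals of 7.47 and 7.35 on the HS + EA arrays, 7.66 and 7.51 on the HS arrays, and 6.82 and 6.66 on the control arrays. All 4 suspended arrays lay above both control arrays. Rora rose in HS relative to control by 0.84 ± 0.13 log2 (adjusted p = 0.028), or 1.79-fold with a 95% interval from 1.45 to 2.21. HS + EA minus control was 0.66 ± 0.13 (adjusted p = 0.0624) and HS + EA minus HS was -0.18 ± 0.13, with an interval from -0.48 to 0.13. The direction in HS minus control was the same in all 18 alternative settings, from 0.76 to 0.92, but the call was lost in 9 of them. Among these, the adjusted p was 0.054 without control array 2, 0.167 and 0.115 without HS arrays 1 and 2, and 0.0833 and 0.0834 without HS + EA arrays 1 and 2, which do not enter the difference but give residual degrees of freedom.

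Cry2, one of the repressors of BMAL1 and CLOCK, had signals of 6.94 and 6.95 on the HS + EA arrays, 7.06 and 6.78 on the HS arrays, and 5.27 and 6.17 on the control arrays. The suspended arrays did not overlap control, but the control arrays differed by 0.91 log2, a gap that only 1.78% of genes exceeded in that group. The differences of 1.23 ± 0.26 in HS + EA minus control (adjusted p = 0.0702) and 1.20 ± 0.26 in HS minus control (adjusted p = 0.0776) did not pass, although they exceeded those of Rora in size. The interval of the second ran from 0.62 to 1.79. The 2 values were 0.77 and 0.75 without control array 1 and 1.68 and 1.66 without control array 2, where both passed (adjusted p = 0.0116 and 0.0117). Control array 1, the lowest for Cry2, was also the lowest array for the adipocyte markers given above, and the part of tissue makeup in the Cry2 gap was not tested. HS + EA minus HS was 0.02, with an interval from -0.56 to 0.61.

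Cry1, the other cryptochrome gene and one with both E-box and ROR control, had signals of 5.26 and 5.39 on the HS + EA arrays, 5.62 and 5.73 on the HS arrays, and 5.47 and 5.21 on the control arrays. HS was the highest group and overlapped neither other group. Its differences were -0.35 ± 0.15 in HS + EA minus HS (adjusted p = 1.00), -0.02 ± 0.15 in HS + EA minus control (adjusted p = 0.981) and 0.34 ± 0.15 in HS minus control (adjusted p = 0.409). The last was 0.21 without control array 2. Clock, the partner of BMAL1, had signals of 6.78 and 6.53 on the HS + EA arrays, 6.75 and 6.81 on the HS arrays, and 6.23 and 6.71 on the control arrays. HS + EA overlapped both other groups. None of the differences of Clock passed, and the largest was 0.31 ± 0.18 in HS minus control, with an interval from -0.10 to 0.72. It was 0.07 without control array 1, the lowest for Clock.

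**Figure D2:**
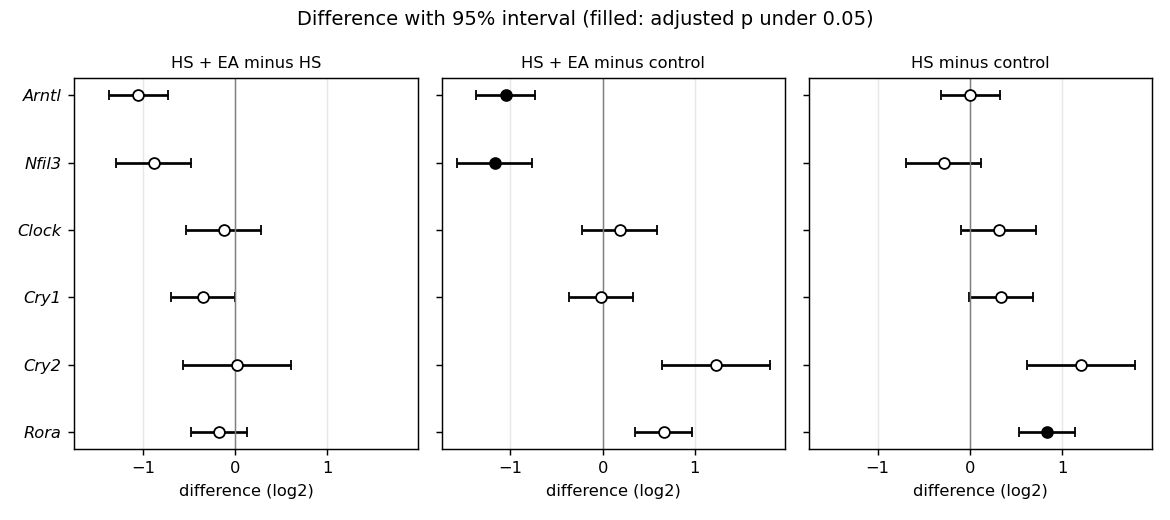
Log2 differences of the 6 genes (horizontal axis) with 95% intervals from limma, for HS + EA minus HS, HS + EA minus control and HS minus control. Filled points passed adjusted p under 0.05: Arntl (-1.05) and Nfil3 (-1.17) against control in HS + EA, and Rora (0.84) in HS.

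Counted over the comparison of HS + EA with HS, which by the labels differ in electroacupuncture, none of the 6 genes passed, and no gene of the array did (0.0% of 19938). The labels do not give the time of day of sampling. A difference in it between groups cannot be told apart from an effect of treatment, here or in the comparisons with control. At an unadjusted p under 0.05 were 3 of the 6, Arntl, Nfil3 and Cry1, all lower, where 1.5% of all genes were lower at that level and 3.07%, or 612 genes, in either direction. In 4 of 6, the same 3 and Rora, the HS + EA arrays lay wholly below the HS arrays, against 17.1% of all genes. The median difference of the 6 was -0.27, against -0.01 over all genes. Alternative fits gave between 0 and 4 called genes, and Arntl passed with array weights (adjusted p = 0.0451).

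In HS + EA against control, 2 of 6 fell and none rose, where 0.587% of all genes (117) fell and 0.446% (89) rose, a split that was 111 and 55 with median centring. Arrays of the groups did not overlap upwards in 2 of 6 (21.8% of all genes) and downwards in 2 (20.0%). In HS against control, which by the labels differ in suspension, 1 of 6 rose and none fell, against 0.537% and 0.512% of all genes. The HS arrays lay wholly above control in 4 of 6, Clock, Cry1, Cry2 and Rora, and wholly below in 1, Nfil3, against 21.3% and 18.5% of all genes. The median of the 6 was 0.08 in HS + EA minus control and 0.32 in HS minus control, with 0.01 over all genes in both. In HS + EA minus control the 6 moved in opposite directions, with a median absolute difference of 0.85, against 0.16 over all genes. The 3 comparisons share arrays in pairs, so their values are not independent of each other.

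The genes on the E-box side of the loop were described from a list of 11: Per1, Per2, Per3, Dbp, Tef, Hlf, Nr1d1, Nr1d2, Bhlhe40, Bhlhe41 and Ciart. In HS + EA against control 3 of 11 rose (0.446% of all genes), all 11 had an unadjusted p under 0.05 (6.47% of all genes in that direction), and the arrays of all 11 lay above control (21.8% of all genes). The median was 0.95. Dbp, a D-box activator, rose by 1.51 ± 0.17 log2 (adjusted p = 0.0087), the period gene Per3 by 1.49 ± 0.17 (0.0103) and Tef, a relative of Dbp, by 1.03 ± 0.17 (0.0324). Ciart, a repressor of the BMAL1 and CLOCK pair, had 6.81 and 6.55 on the HS + EA arrays, 4.77 and 4.99 on the HS arrays, and 3.78 and 5.34 on the control arrays. Its control arrays stood far apart, with HS between them, and HS + EA minus control was 2.12 ± 0.40 (adjusted p = 0.0514). Dbp had 8.31 and 8.34 on the HS + EA arrays, 7.11 and 6.91 on the HS arrays and 6.60 and 7.04 on the control arrays, so that the arrays lowest for Arntl were the highest for Dbp.

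Against HS, none of the 11 passed in HS + EA, 7 had an unadjusted p under 0.05 in the upward direction (1.56% of all genes) and the arrays of 9 lay above HS (15.4% of all genes), with a median of 0.50. Dbp stood at 1.31 ± 0.17 (adjusted p = 0.174), Ciart at 1.80 ± 0.40 and the period gene Per2 at 0.81 ± 0.17. Per2 lay at 5.77 and 6.11 on the HS + EA arrays, 5.27 and 4.998 on the HS arrays and 5.20 and 5.06 on the control arrays, with HS and control overlapping. In HS against control none of the 11 passed, 5 had an unadjusted p under 0.05 upwards (6.63% of all genes), and the median was 0.32. All 11 differences were above 0, and the HS arrays of 6 lay wholly above control (21.3% of all genes). Per3 differed by 0.81 ± 0.17 (adjusted p = 0.0721) and Tef by 0.65 ± 0.17 (0.131) in HS minus control. In HS + EA minus HS, Per3 differed by 0.68 ± 0.17 and Tef by 0.38 ± 0.17.

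Nr1d1, the REV-ERB gene whose product opposes RORA at ROR elements, was higher on all 4 suspended arrays than on both control arrays, like Rora and Cry2. It had 10.77 and 10.51 on the HS + EA arrays, 10.76 and 10.55 on the HS arrays, and 9.41 and 9.97 on the control arrays. The differences were -0.01 ± 0.20 in HS + EA minus HS, 0.95 ± 0.20 in HS + EA minus control (adjusted p = 0.0654) and 0.97 ± 0.20 in HS minus control (adjusted p = 0.0667). Nr1d2, its relative, had 8.58 and 8.43 on the HS + EA arrays, 8.20 and 8.20 on the HS arrays, and 7.76 and 8.01 on the control arrays. Its difference was 0.62 ± 0.14 in HS + EA minus control (adjusted p = 0.0859) and 0.30 ± 0.14 in HS + EA minus HS. Both receptors had their 2 lowest arrays in control, whereas the HS and control arrays of Arntl overlapped. Rorb, the neural relative of Rora, averaged 3.03 in HS + EA, 2.81 in HS and 2.71 in control, below the background level.

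**Figure D3:**
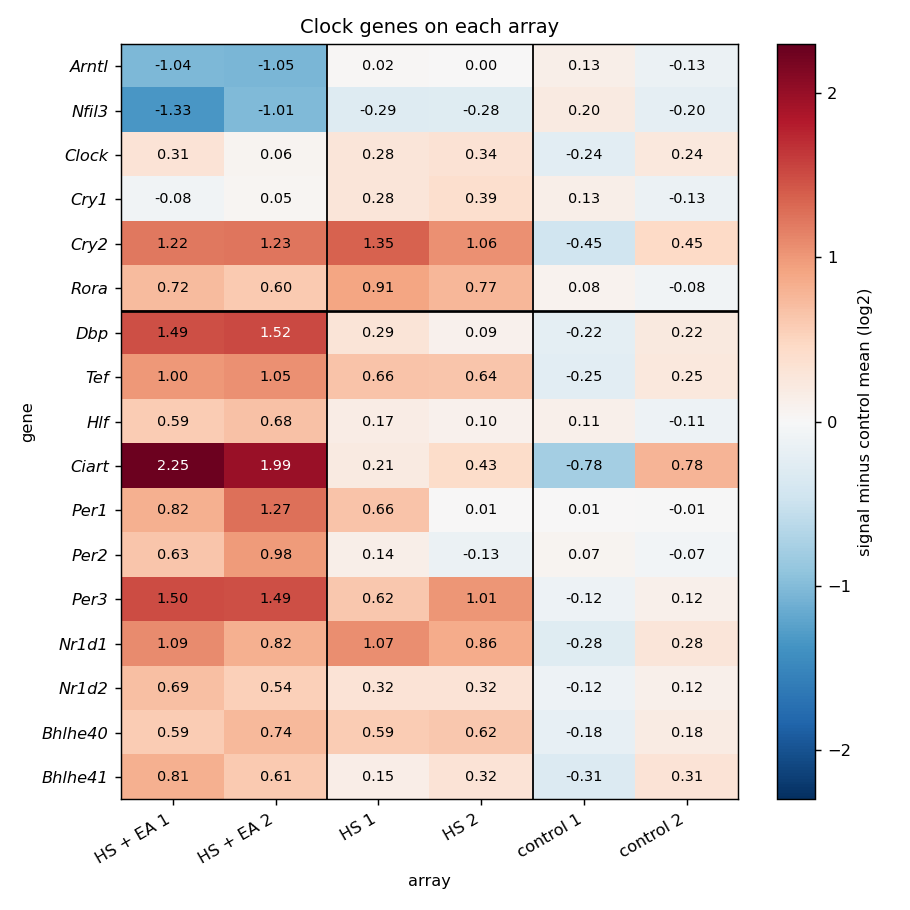
Signal minus the control mean (log2, colour and printed value) for the 6 genes above the line and the 11 E-box genes below it, on each array. HS + EA arrays show Arntl at -1.04 and -1.05 and Dbp at 1.49 and 1.52, whereas Rora, Cry2 and Nr1d1 lie above both control arrays on all 4 suspended arrays.

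Likeness of pattern was measured as the root mean square difference between log2 signals centred on each gene's mean over the 6 arrays, among 9677 named genes at or above the median signal. By this measure the gene nearest to Arntl was Nfil3, at 0.159 log2, closer than any other pair of the 6 genes. The next pair was Clock and Cry1 at 0.261, which exceeds the SD of either over the 6 arrays (0.204 and 0.185). Small distances between genes that vary little therefore do not show a shared pattern. After Nfil3, the genes nearest to Arntl were Slc25a36, a mitochondrial pyrimidine nucleotide carrier (0.188), Asb2, a ubiquitin ligase subunit (0.244), the Wnt receptor gene Fzd9 (0.246) and the endothelial gene Cd93 (0.266). Nearest to the mirror image of Arntl were the embryonic myosin gene Myh3 (0.145), the metalloproteinase inhibitor gene Timp3 (0.174), Fibin (0.19), Dbp (0.204) and Per2 (0.208). Myh3 had 5.42 and 5.65 on the HS + EA arrays, 4.38 and 4.50 on the HS arrays and 4.65 and 4.79 on the control arrays, so that the HS + EA arrays were the highest. These distances describe the 6 arrays, which are the same for every gene, and carry no test.

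**Figure D4:**
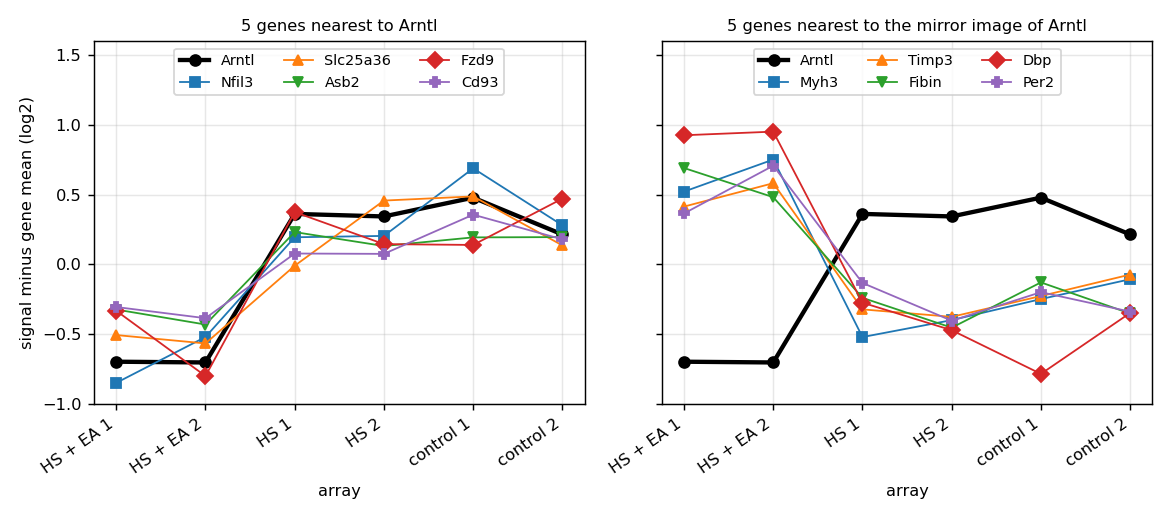
Signal minus each gene's mean (log2, vertical axis) on the 6 arrays for Arntl (thick black line) with the 5 genes nearest to it (left) and the 5 nearest to its mirror image (right). Lines only join the values of a gene. The HS + EA arrays part from the other 4 in every gene shown, which follows from how the genes were picked.

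For Rora the 5 nearest genes were Kctd15 (0.062), Stk11ip (0.067), Grik3 (0.073), the glucocorticoid-induced chaperone gene Fkbp5 (0.075) and Rgma (0.076). Fkbp5 had 6.57 and 6.64 on the HS + EA arrays, 6.77 and 6.56 on the HS arrays, and 5.99 and 5.78 on the control arrays, and rose in HS relative to control by 0.78 ± 0.15 (adjusted p = 0.0468). In the same comparison Rgma (adjusted p = 0.0261) and Kctd15 (0.0418) passed as well, and Grik3 (0.0913) and Stk11ip (0.095) did not. The 5 genes were picked for values like those of Rora, so their likeness to it follows from the choice.

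Markers of other cell types moved between the same groups. The 7 endothelial markers had a mean level of 7.11 and 7.02 on the HS + EA arrays, 7.45 and 7.28 on the HS arrays, and 7.31 and 7.50 on the control arrays. In HS + EA minus HS all 7 differences were below 0, 3 of them with an unadjusted p under 0.05 (1.5% of all genes) and none adjusted. In HS + EA minus control 1 of the 7 fell (0.587% of all genes), and the differences ran from -1.28 to 0.38. There the HS + EA arrays of 5 lay wholly below control (20.0% of all genes) and those of 1 wholly above (21.8%). The 11 macrophage markers had 5.93 and 5.63 in HS + EA, 5.75 and 5.16 in HS, and 5.13 and 5.42 in control. In HS + EA minus HS 9 of their 11 differences were above 0, against 9656 of 19938 over all genes. In HS + EA minus control none of the 11 passed, and the HS + EA arrays of 8 lay wholly above control (21.8% of all genes). The 11 fibroblast and tendon markers had 7.41 and 7.56 in HS + EA, 7.52 and 6.90 in HS, and 8.15 and 8.11 in control. Relative to control, 3 of the 11 fell in HS + EA (0.587% of all genes) and 3 in HS (0.512%). In HS + EA minus HS the 11 moved in opposite directions, from -0.48 to 2.36, with 5 above 0 and 6 below. Of the 11, 3 had an unadjusted p under 0.05 there, all higher (1.56% of all genes). Of the 8 measured adipocyte markers, whose mean levels are given above, 7 differences were above 0 in HS + EA minus HS, with a median of 0.41. None passed. The HS + EA arrays of 6 lay wholly above HS (15.4% of all genes) and those of 1 wholly below (17.1%). All 7 endothelial, all 11 macrophage and 7 of the 8 adipocyte markers lay above the background level. The part of these cells in the differences of Arntl and Nfil3 was not tested, and in whole muscle fewer cells of a type and less RNA per cell cannot be told apart.

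A list of 10 genes reported in mice to depend on BMAL1 in muscle held 1 that rose (0.446% of all genes) and 1 that fell (0.587%) in HS + EA against control, and 1 that fell in HS against control (0.512%). Ppp1r3c, which targets a phosphatase to glycogen, had 7.25 and 7.80 on the HS + EA arrays, 7.99 and 8.02 on the HS arrays, and 9.44 and 9.20 on the control arrays. It fell by 1.79 ± 0.19 log2 in HS + EA relative to control (adjusted p = 0.0078) and by 1.31 ± 0.19 in HS (adjusted p = 0.0189). Pdp1, which reactivates pyruvate dehydrogenase, rose by 0.88 ± 0.16 in HS + EA relative to control (adjusted p = 0.0437) and differed by 0.79 ± 0.16 in HS minus control (adjusted p = 0.0677). The myogenic factor gene Myod1, a direct BMAL1 target in mouse muscle, had 6.70 and 6.60 on the HS + EA arrays, 6.84 and 7.04 on the HS arrays, and 6.40 and 6.02 on the control arrays, with differences of -0.29 ± 0.16 in HS + EA minus HS and 0.73 ± 0.16 in HS minus control (adjusted p = 1.00 and 0.0856). In HS + EA minus control Myod1 differed by 0.44 ± 0.16 (adjusted p = 0.291). The hexokinase gene Hk2 differed by -0.17 ± 0.13 in HS + EA minus HS and by -0.42 ± 0.13 in HS + EA minus control (adjusted p = 0.194). Tcap differed by 0.15 ± 0.16 in HS + EA minus HS, 0.66 ± 0.16 in HS + EA minus control (adjusted p = 0.115) and 0.51 ± 0.16 in HS minus control (adjusted p = 0.214). The medians of the list were -0.02 in HS + EA minus HS, 0.08 in HS + EA minus control and 0.06 in HS minus control, near the medians over all genes. Its members moved in opposite directions, which cancel in a median. The median absolute differences were 0.22, 0.43 and 0.28 in the same order, against 0.11, 0.16 and 0.16 over all genes.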

How the data were processed

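Total RNA of mouse soleus was hybridized to Affymetrix arrays, per the labels. Per the submitters' processing notes, the authors deposited log2 signals made by RMA in Affymetrix Expression Console, version and genome build not given in the sources used here. These values were used as they stood. Of 35556 transcript clusters, 21789 had 1 listed gene symbol, 1621 had several and 12146 none listed, and only the first were used, which left 19938 genes (the cluster of highest mean for 999 symbols with several), with no filter on signal. Group means were fitted to the 6 arrays together (limma 3.58.1, R 4.3.3) with trended variance moderation, leaving 3 residual degrees of freedom beside 5.88 from the prior. Tests were two-sided, Benjamini-Hochberg adjusted over all genes, threshold 0.05. The number of arrays limits the precision. No 2 arrays held identical values. The genes described, the gene lists and the background of olfactory receptor genes were chosen with earlier results of these data known. Besides the 7 genes, those named were list members that passed or were among the 4 with the smallest p of their list in a comparison, and the genes nearest in pattern. The alternatives changed the variance prior, weighted the arrays, or used a signal filter, 3 renormalizations, other cluster rules, the compared groups alone, a replicate block, a looser threshold and each array left out.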

Additional observations from a re-analysis of the deposited data

How the results depend on the processing

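Over 18 alternative settings, 13 of the 18 differences of the 6 genes kept their direction throughout. Only the 3 renormalizations and the fits without an array of a compared group could change a difference. The other settings left it as it was, so agreement there carries no weight. The 5 others lay between -0.12 and 0.19 and turned in 10 instances: Arntl in HS minus control became -0.012 with quantile normalization again, -0.019 with median centring, -0.022 with cyclic loess, -0.13 without control array 2 and -0.0029 without HS array 1 (-0.13 to 0.14 with 1 array left out). Clock became -0.055 in HS + EA minus control without control array 1 (-0.055 to 0.43) and 0.0029 in HS + EA minus HS without HS + EA array 2 (-0.25 to 0.0029). Cry1 in HS + EA minus control became 0.11 without control array 1 and 0.046 without HS + EA array 1 (-0.15 to 0.11), and Cry2 in HS + EA minus HS became -0.12 without HS array 2 (-0.12 to 0.16). The cause was not tested. Of the 6 genes, the count called in HS minus control was 1, and 2, with Cry2 added, with quantile normalization again, cyclic loess and the looser threshold of 0.1, and 0 with a constant variance prior, every cluster by itself, the compared groups alone and the replicate block (0 to 1 with 1 array left out). In HS + EA minus HS it was 1, Arntl, with array weights, and 0 with 1 array left out. In HS + EA minus control it was 2, against 0 with every cluster by itself 4 at the looser threshold, and 3 with the signal filter (Rora added), quantile normalization again and cyclic loess (Cry2 added in both) (0 to 3 with 1 array left out).

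Over all genes, 209 were called in HS minus control, against 80 with a constant prior, 130 with array weights, 317 with quantile normalization again, 1 with every cluster by itself, 68 with the compared groups alone, 102 with the replicate block and 482 at the looser threshold (16 to 301 with 1 array left out). In HS + EA minus HS the count was 0, against 1 with a robust prior and at the looser threshold, 4 with array weights and 3 with the groups alone (0 to 3 with 1 array left out). In HS + EA minus control it was 206, against 101 with a constant prior, 1 with every cluster by itself, 129 with the groups alone, 127 with the replicate block and 399 at the looser threshold (2 to 299 with 1 array left out). Every fit without 1 array had 2 residual degrees of freedom. The replicate numbers were not taken as pairs: deviations of same-numbered arrays from their group mean correlated across genes at -0.016 (HS + EA with HS), 0.017 (HS + EA with control) and -0.162 (HS with control). With the replicate block the Rora call in HS missed the threshold (adjusted p = 0.0546), and those of Arntl and Nfil3 in HS + EA minus control were made.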

Other observations

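Clock and relatives of the clock activators were also described as a list. The 5 measured of a list of 6 activators and relatives were Clock, the homologue Arntl2, the common partner Arnt and the hypoxia factors Epas1 and Hif1a, and none passed in any comparison. Arnt had 8.32 and 8.35 on the HS + EA arrays, 8.42 and 8.37 on the HS arrays, and 7.86 and 7.98 on the control arrays, with differences of -0.06 ± 0.12 in HS + EA minus HS and 0.48 ± 0.12 in HS minus control (limma adjusted p = 1.00 and 0.124). Epas1 differed by -0.21 in HS + EA minus HS and by -0.32 in HS + EA minus control (limma adjusted p = 1.00 and 0.346).

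Of 15 measured kinases, ubiquitin ligases and cofactors of clock proteins none passed in any comparison, and their median differences were 0.02 in HS + EA minus HS, 0.04 in HS + EA minus control and 0.01 in HS minus control. Usp2, a deubiquitinase gene with E-box control, had 8.60 and 8.71 on the HS + EA arrays, 8.30 and 8.05 on the HS arrays, and 8.20 and 8.26 on the control arrays, a difference of 0.49 ± 0.14 from HS (limma adjusted p = 1.00). Nampt, the rate-limiting enzyme gene of NAD salvage and a clock target in liver, had 8.03 and 8.07 on the HS + EA arrays, 7.86 and 8.20 on the HS arrays, and 8.62 and 8.46 on the control arrays. Its differences from control were -0.49 ± 0.15 in HS + EA and -0.51 ± 0.15 in HS (limma adjusted p = 0.192 and 0.174).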
